A study of Drosophila melanogaster with 12 samples.

Results

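The Hedgehog signalling genes described here are hh, which encodes the secreted ligand, disp, whose product releases it, the receptor gene ptc, the co-receptor genes ihog and boi, the signal transducers smo, cos, fu and Su(fu), and ci, which encodes the transcription factor at the end of the pathway. These 10 genes were chosen by their known role and by no rule on their values, although earlier results of these data were known. They come from 13726 genes with a value in the deposited tables, and all 10 passed the filter on low counts in every comparison.

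Hedgehog signalling works by relief of inhibition. In cells that receive no ligand, the receptor Ptc keeps the membrane protein Smo inactive and Ci is cut into a repressor; when Hedgehog binds Ptc together with Ihog or Boi, Smo is freed, the kinase Fu and the kinesin-like scaffold Cos pass the signal on, and full-length Ci activates targets that include ptc itself. In the Drosophila germarium, terminal filament cells (TFCs) and cap cells (CpCs) are known as sources of Hedgehog, and escort cells (ECs), which surround the dividing germline, as cells that receive it.

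The data are 12 RNA-seq libraries from ovarian niche cells isolated by flow sorting, 2 in each of 6 groups. TFCs-CpCs from 1w-old and 4w-old females were sorted for strong GFP from flies with a UASp-tau::mGFP6 reporter driven by bab1-Gal4, a driver that is also active, more weakly, in ECs. ECs from 1w-old and 4w-old females were sorted from flies with a LexAop-mCD8::GFP reporter under ptc-LexA. The last pair of groups were ECs of females kept for 2 weeks at 29 °C after eclosion, the temperature at which Gal80ts no longer blocks Gal4: control ECs carried LexAop-mCD8::GFP, ptc-LexA, tub-Gal80ts and ptc-Gal4, and Smu1 RNAi ECs carried the same transgenes plus UAS-Smu1 RNAi. ptc-LexA is an enhancer line of ptc, so the cells called ECs were chosen through the activity of a ptc enhancer, and the driver, the reporter and the number of cells per sort differ with the cell group and cannot be told apart from it. The study's methods call the libraries of a group biological replicates.

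The libraries held between 12078227 and 52487930 counts, with the 4 TFCs-CpCs libraries above all EC libraries. Not all of the markers of the labelled cells separated them. en and LamC, used as markers of TFCs-CpCs, lay between 13.95 and 297.71 and between 164.11 and 446.72 cRPKM in TFCs-CpCs and at no more than 3.19 and 40.79 cRPKM in ECs. cRPKM is a read count scaled to the mappable length of the transcript and to the depth of the library, so it can be compared between genes. bab1, from the same list, lay at 7.69 and 9.19 cRPKM in 1w-old TFCs-CpCs, within the 4.99 to 9.52 cRPKM of ECs, and bab2 at 40.26 and 42.24 cRPKM in those cells, against up to 56.98 cRPKM in ECs. Of the EC list, Wnt4 at 1390.23 cRPKM and Eph at 79.84 cRPKM were higher in the second 4w TFCs-CpCs library than in any EC library. The rest of the EC list separated the cell groups without overlap. fax lay between 37.5 and 201.08 cRPKM in TFCs-CpCs and between 451.96 and 782.44 cRPKM in ECs. CG17321 lay at no more than 0.02 cRPKM in TFCs-CpCs and between 0.32 and 6.07 cRPKM in ECs. SPE lay at 0 cRPKM in TFCs-CpCs and between 0.16 and 7.32 cRPKM in ECs. The 1w-old TFCs-CpCs libraries also carried a large amount of muscle transcripts: the 16 measured muscle markers summed to 56265.08 and 59680.33 cRPKM in 1w-old cells, to 1964.01 and 2097.46 cRPKM in 4w-old cells, and to between 81.19 and 1343.79 cRPKM in the 8 EC libraries. The 11 follicle cell markers summed to 2830.23 and 9318.72 cRPKM in 1w-old TFCs-CpCs and to 17737.93 and 35672.66 cRPKM in 4w-old ones. The part of these cells in the results on TFCs-CpCs was not tested, and in sorted bulk samples fewer cells of a type and less RNA per cell cannot be told apart.

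The ligand gene hh (FBgn0004644, chr3R:23128169-23141906, minus strand, BDGP6) varied most between the 6 groups of all 10 genes, with a highest group mean 16.1 times the lowest. In 1w-old TFCs-CpCs hh lay at 5.35 and 7.65 cRPKM, and in 4w-old TFCs-CpCs at 25.3 and 105.86 cRPKM. Both older libraries were above both younger ones, and the second 4w library stood far above the first. hh lay at 117.79 and 91.48 cRPKM in 1w-old ECs, at 89.71 and 82.96 cRPKM in 4w-old ECs, at 88.47 and 86.6 cRPKM in control ECs and at 100.17 and 101.87 cRPKM in Smu1 RNAi ECs. Every EC library thus held more hh than either 1w-old TFCs-CpCs library and the first 4w-old one, while the second 4w-old TFCs-CpCs library fell within the EC range. In rank, hh exceeded 55.2% of all genes by group mean in 1w-old TFCs-CpCs, 88.9% in 4w-old TFCs-CpCs and between 91.5% and 92.9% in the 4 EC groups.

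The gene disp (FBgn0029088), which encodes the transporter-like protein that lets the lipid-bearing ligand leave the cell, was among the least variable, with group means between 7.36 and 11.1 cRPKM. Single libraries ran from 6.19 and 12.68 cRPKM, both in 4w-old TFCs-CpCs, and these limits enclose all other libraries. As a result the level of hh relative to disp followed hh: the ratio of their cRPKM was 0.693 and 0.811 in 1w-old TFCs-CpCs, 4.09 and 8.35 in 4w-old TFCs-CpCs, and between 7.96 and 15.5 in ECs.

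**Figure D1:**
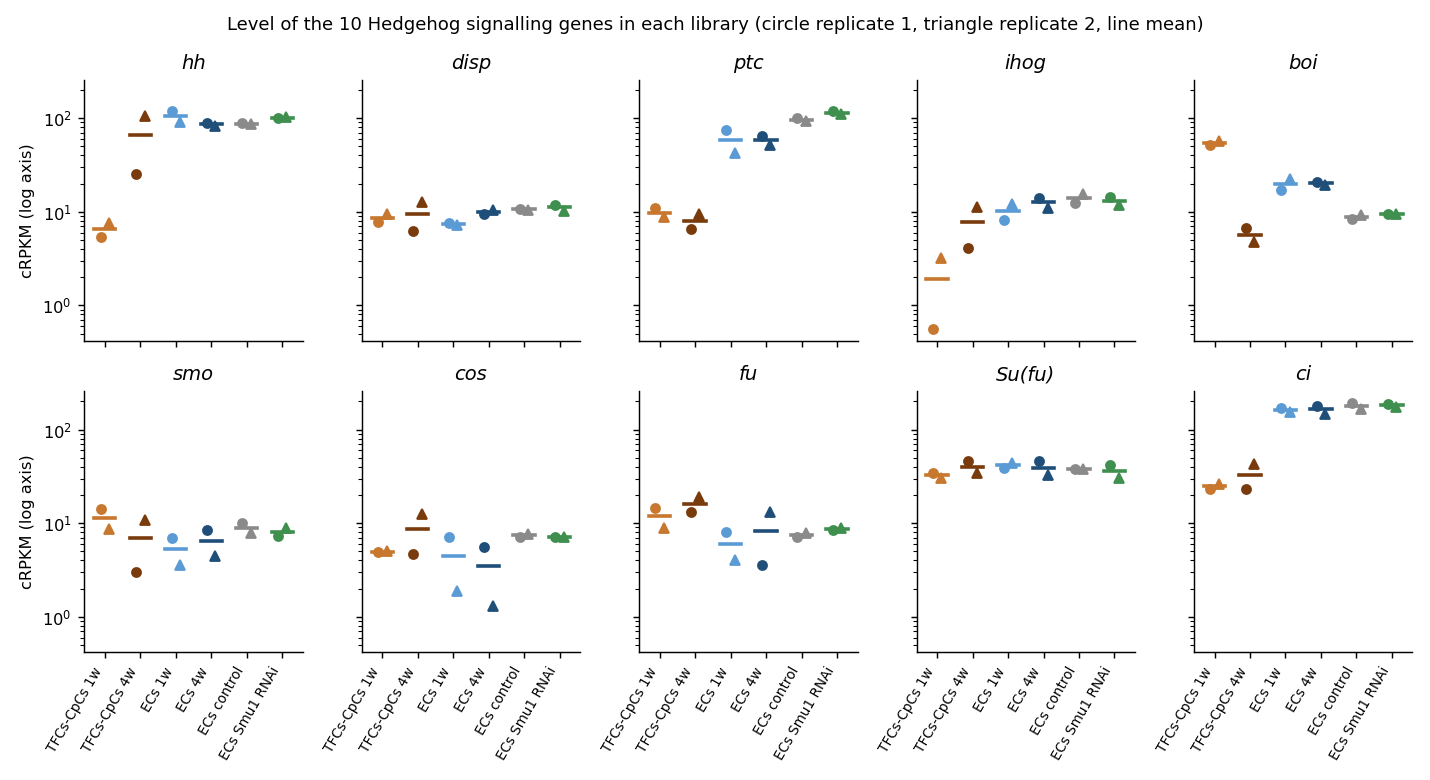
Level of each of the 10 Hedgehog signalling genes in cRPKM (log axis) in the 12 libraries, with 6 groups per panel; circles are replicate 1, triangles replicate 2 and lines the mean of the 2. hh, ptc and ci are low in 1w-old TFCs-CpCs and high in every EC group, boi is highest in 1w-old TFCs-CpCs at 51.59 and 56.78 cRPKM, and Su(fu) stays between 30.48 and 46.35 cRPKM throughout.

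The receptor gene ptc (FBgn0003892, chr2R:8649649-8665223, plus strand) separated the cell groups without overlap. It lay at 10.9 and 8.71 cRPKM in 1w-old and at 6.55 and 9.48 cRPKM in 4w-old TFCs-CpCs. The values were 74.06 and 42.4 cRPKM in 1w-old ECs, and 63.88 and 51.78 cRPKM in 4w-old ECs. In the second EC experiment it reached 100.17 and 93.16 cRPKM in control ECs and 119.57 and 109.47 cRPKM in Smu1 RNAi ECs, above all 4 libraries of the ageing experiment. Because ECs were sorted through a ptc enhancer line, their ptc level is tied to the way the cells were picked. The 2 EC experiments also differ in genotype and age, which cannot be told apart here, and the temperature of the ageing flies is not given in the sources used here.

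The co-receptor genes ihog and boi encode related membrane proteins with immunoglobulin and fibronectin type III domains, either of which can present the ligand to Ptc. boi (FBgn0040388, chrX:2444167-2470043, minus strand) lay at 51.59 and 56.78 cRPKM in 1w-old TFCs-CpCs and at 6.67 and 4.72 cRPKM in 4w-old TFCs-CpCs, so that the youngest and the oldest libraries of this cell group were the highest and the lowest of the series. boi lay at 17.22 and 22.47 cRPKM in 1w-old ECs and at 21 and 19.47 cRPKM in 4w-old ECs, and it was lower, at 8.45 and 9.32 cRPKM, in control ECs and at 9.55 and 9.41 cRPKM in Smu1 RNAi ECs. A stretch of 2.4% of its exon bases is shared with the gene z on the other strand.

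ihog (FBgn0031872) had the opposite order in TFCs-CpCs, with 0.56 and 3.24 cRPKM in the younger and 4.13 and 11.32 cRPKM in the older cells. In ECs it stayed between 8.24 and 15.48 cRPKM. The ratio of ihog to boi was therefore 0.0109 and 0.0571 in 1w-old TFCs-CpCs and 0.619 and 2.4 in 4w-old TFCs-CpCs. It lay between 0.479 and 0.672 in the ECs of the ageing experiment and between 1.25 and 1.66 in the control and Smu1 RNAi ECs. The more abundant co-receptor transcript was boi in 7 of 12 libraries, namely both 1w-old and the first 4w-old TFCs-CpCs library and the 4 EC libraries of the ageing experiment, and ihog in the other 5.

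**Figure D2:**
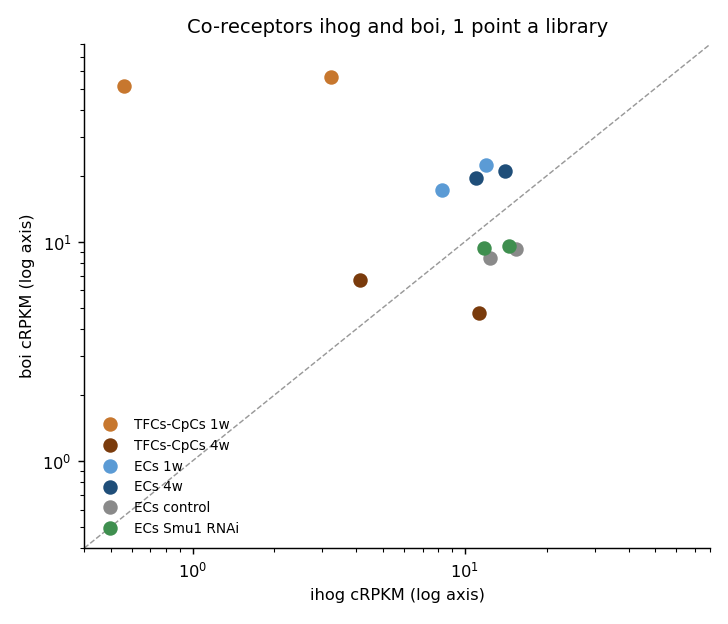
ihog (x axis) against boi (y axis) in cRPKM on log axes, 1 point for each of the 12 libraries, coloured by group; the dashed line marks equal levels. The 1w-old TFCs-CpCs libraries lie at the upper left, with boi above 50 cRPKM and ihog under 4 cRPKM, and the 4w-old ones lie far below them in boi.

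The signal transducers varied less between the 6 groups than hh, ptc, boi and ci. smo (FBgn0003444), which encodes the membrane protein that Ptc inhibits, lay between 3.03 and 14.12 cRPKM, cos (FBgn0000352), the kinesin-like scaffold, between 1.31 and 12.59 cRPKM, and fu (FBgn0001079), the kinase, between 3.6 and 19.04 cRPKM. For smo all 5 pairs of neighbouring groups in the order of means overlapped, for fu 4 of 5 and for cos 3 of 5. The smo exons share 27.1% of their bases, and those of fu 6.1%, with genes on the other strand, and the use of strand in counting is not given in the sources used here. Su(fu) (FBgn0005355), which encodes an inhibitor that binds Ci, was the steadiest of the 10 genes, between 30.48 and 46.35 cRPKM, with a highest group mean 1.28 times the lowest and an overlap between all 5 neighbouring groups.

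ci (FBgn0004859, chr4:47710-57041, minus strand) was the most abundant of the 10 transcripts in every EC group. It lay at 23.09 and 26.24 cRPKM in 1w-old and at 23.44 and 42.65 cRPKM in 4w-old TFCs-CpCs. It lay at 170.61 and 155.9 cRPKM in 1w-old ECs, 180.67 and 147.85 cRPKM in 4w-old ECs, 192.15 and 167.5 cRPKM in control ECs and 189.57 and 174.44 cRPKM in Smu1 RNAi ECs. Every EC library was above every TFCs-CpCs library, and the EC groups overlapped among themselves. The ratio of ci to its inhibitor gene Su(fu) lay between 0.506 and 1.25 in TFCs-CpCs and between 3.56 and 5.72 in ECs. Over the 12 libraries ptc and ci had the most similar profiles among the members other than cos, with a Pearson r of 0.96 of log2(CPM + 1). CPM stands for TMM-scaled counts relative to library size. cos averaged under 10 cRPKM in every group and was left out. hh and ihog followed with 0.90. Both were lowest in 1w-old TFCs-CpCs, and the second 4w-old TFCs-CpCs library lay within the EC range for both. The libraries of a group share their cell group and age, and what these values rest on was not tested.

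The comparison of TFCs-CpCs with ECs at 1w asked where ligand, receptors and effectors were expressed in young niches. At 1w hh, ptc and ci were lower in TFCs-CpCs than in ECs, and boi and smo were higher. These are 5 of the 10 genes, in a comparison in which edgeR's quasi-likelihood test called 31.2% of all 10173 genes tested at a Benjamini-Hochberg adjusted p under 0.1 and a log2 fold change of 1 or more in size, 14.0% being higher and 17.2% lower. The median log2 fold change was 0.28 over the 10 genes and -0.19 over all genes tested. Of the muscle markers tested at 1w, 14 of 16 were called higher in TFCs-CpCs, and their part in these values was not tested.

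For hh the log2 fold change of TFCs-CpCs over ECs at 1w was -3.64 ± 0.32 (standard error, edgeR, 2 against 2 libraries), with an adjusted p of 0.00113. ci followed with -2.36 ± 0.23 and an adjusted p of 0.00156, and ptc with -2.18 ± 0.34 and an adjusted p of 0.00726 (edgeR). boi was higher by 1.81 ± 0.31 on the log2 scale, with an adjusted p of 0.0106 in edgeR. These 4 calls stood in all 7 other fits and without any single library. smo was higher by 1.50 ± 0.50 with an adjusted p of 0.0744 in edgeR, but it was not called without the first 1w TFCs-CpCs library (log2 fold change 1.09), without the second 1w EC library (1.07) or in limma on cRPKM (0.99 and 1.12 with pseudocounts of 1 and 0.1).

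Another pair of genes came close to the threshold at 1w. ihog differed by -2.08 ± 0.88 on the log2 scale, with an adjusted p of 0.139 in edgeR and between 0.0309 and 0.117 in the 7 alternatives, 5 of which called it. fu differed by 1.37 ± 0.52 with an adjusted p of 0.107 in edgeR and between 0.0644 and 0.279 in the alternatives, 4 of which called it. Without the second 1w TFCs-CpCs library edgeR called both genes, ihog at -3.69 and fu at 1.82. disp, cos and Su(fu) differed by 0.59, 0.55 and 0.01 and were not called.

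At 4w ptc and ci were again lower in TFCs-CpCs than in ECs, whereas hh was not called. This comparison shares no library with that at 1w. edgeR called 2 of the 10 genes and 6.12% of the 9908 genes tested (2.37% lower), with a median log2 fold change of -0.14 over the 10 genes and -0.03 over all. ptc differed by -2.74 ± 0.40, with an adjusted p of 0.0259, and ci by -2.21 ± 0.44, with an adjusted p of 0.0581 (edgeR). The muscle markers summed to 1964.01 and 2097.46 cRPKM in these TFCs-CpCs libraries, far under their sums in the younger cells, with 12 of 14 still called higher than in ECs. Both calls rest on having 2 EC libraries: without the first 4w EC library ptc stood at -2.60 and ci at -2.07 with no gene of the table called, and without the second they stood at -2.93 and -2.39 with 106 genes called, none of them ptc or ci.

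The log2 fold change of hh between the cell groups at 4w was -0.31 ± 0.62, with an adjusted p of 0.831 in edgeR and between 0.527 and 0.835 in the alternatives. This value depends on which TFCs-CpCs library is used. Without the second 4w TFCs-CpCs library it was -1.59 and was called, and without the first it was 0.37 and was not. boi, at 5.7 cRPKM on average in TFCs-CpCs and 20.2 cRPKM in ECs, differed by -1.71 ± 0.50 with an adjusted p of 0.125 in edgeR. It was called in 2 of 7 alternatives and without the first 4w TFCs-CpCs library, where it stood at -2.03. Thus the boi difference between the cell groups was called at 1w, where it was positive, and was negative without passing the test at 4w.

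**Figure D3:**
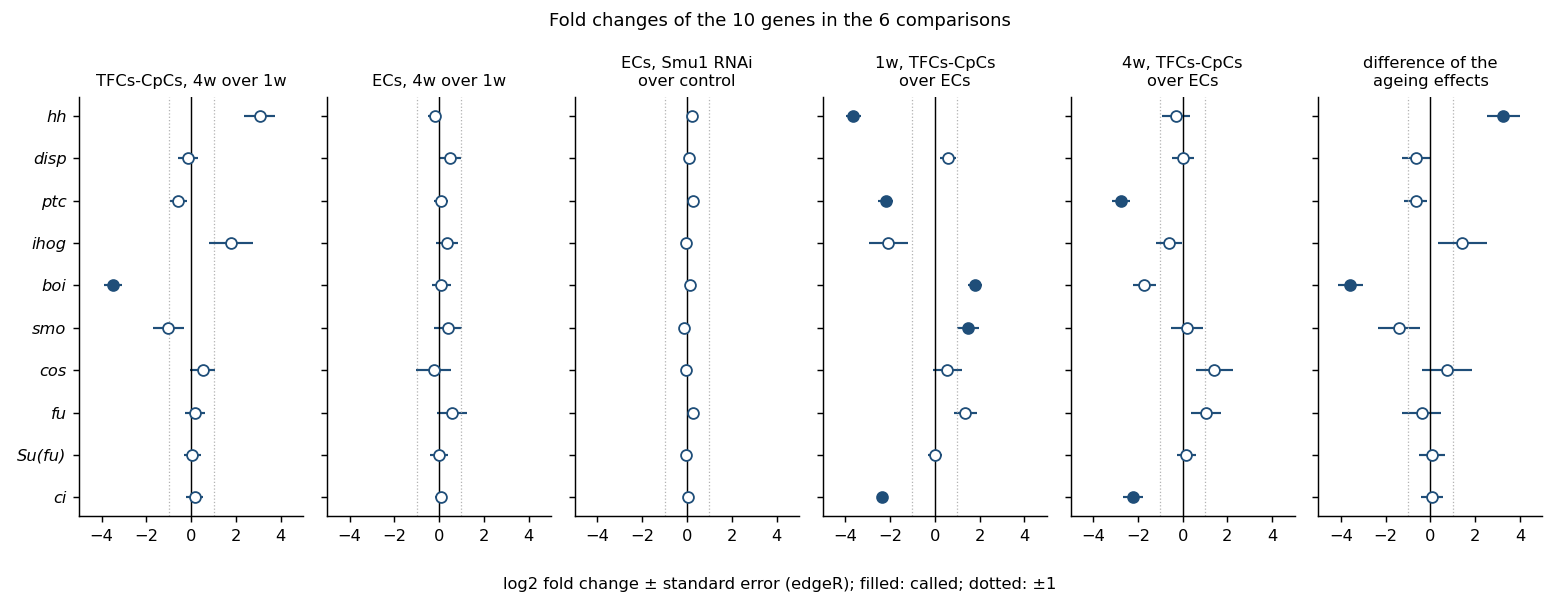
Log2 fold change (x axis, edgeR) of the 10 genes (y axis) in the 6 comparisons; bars are standard errors, filled points were called and dotted lines mark log2 fold changes of -1 and 1. ptc and ci lie at or beyond -2.18 in both comparisons of TFCs-CpCs with ECs, boi and hh lie on opposite sides of 0 with age in TFCs-CpCs, and all points of the Smu1 RNAi comparison lie between -0.13 and 0.28.

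Ageing of TFCs-CpCs was accompanied by a fall of boi, in a comparison that shares its 1w and 4w libraries with those of the cell groups above. Its log2 fold change at 4w over 1w was -3.50 ± 0.39, with an adjusted p of 0.0118 in edgeR and between 8.83e-15 and 0.0142 in the 7 alternatives, and it was called without any single library. It was the only one of the 10 genes that edgeR called, against 5.18% of 9249 genes tested, with 3.92% of genes lower at 4w. The median log2 fold change was 0.10 over the 10 genes and 0.04 over all genes tested.

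hh was the gene with the largest positive value, 3.05 ± 0.70 on the log2 scale at 4w over 1w. Its adjusted p in edgeR was 0.102, just outside the threshold of 0.1, and all 7 alternative fits, with adjusted p between 2.56e-06 and 0.097, called it. With the replicate number as a block it stood at 2.75 with an adjusted p of 0.0227 in edgeR, although whether libraries with the same number shared a batch of females is not known. Leaving out a library moved it in both directions: it was called at 3.80 without the first 4w library and at 1.79 without the second, and not called at 2.86 or 3.25 without the first or the second 1w library. The log2 fold change without the second 4w library is thus well under the value from both, and hh, en, dpp and shf were all highest of the TFCs-CpCs libraries in that library.

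The other 8 genes were not called with age in TFCs-CpCs by edgeR. ihog differed by 1.78 ± 0.97 with an adjusted p of 0.451, and smo by -1.02 ± 0.67 with an adjusted p of 0.562. smo was called without the second 4w library, at -2.09. The values of disp, ptc, cos, fu, Su(fu) and ci lay between -0.57 and 0.51. Muscle markers moved with this comparison, 13 of the 14 tested being called lower at 4w, 2 of 11 follicle cell markers were called higher, and 0 of 10 germline, 1 of 5 hemocyte, 0 of 2 fat body and 0 of 4 neuron markers were called. The part of these cells in the values of boi and hh was not tested. All 5 TFCs-CpCs markers had a positive log2 fold change with age, with a median of 1.52. Of them edgeR called 1 higher, en, and DESeq2 called 3. In the older libraries bab1 reached 15.5 and 43.14 cRPKM, against 7.69 and 9.19 cRPKM before. For bab2 the older libraries held 47.13 and 238.45 cRPKM, the younger ones 40.26 and 42.24 cRPKM. Like hh, all 5 were highest in the second 4w library, and what this shared rise rests on was not tested. Of the 3 EC markers tested, 1 was called lower, fax, which lay at 201.08 and 192.23 cRPKM in the younger cells and at 37.5 and 40.97 cRPKM in the older cells. Wnt4, a Wnt ligand gene on the EC list that was not called in edgeR, lay at 76.89 and 78.95 cRPKM in the younger cells and at 307 and 1390.23 cRPKM in the older cells.

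The homeodomain protein Engrailed is a known activator of hh, and the levels of en and hh ran in parallel over the TFCs-CpCs libraries. en lay at 13.95 and 20.3 cRPKM in 1w-old cells and rose to 71.37 and 297.71 cRPKM in 4w-old cells, a log2 fold change of 3.15 ± 0.71 with an adjusted p of 0.097 in edgeR. It was not called without either 1w library. The ratio of hh to en was 0.384 and 0.377 in 1w-old and 0.354 and 0.356 in 4w-old TFCs-CpCs, a narrow range over libraries whose hh levels spanned 5.35 to 105.86 cRPKM. In ECs, where en lay between 0.32 and 3.19 cRPKM, the ratio was between 26 and 313. Relative to LamC, a nuclear lamina gene that marks the same cells, hh stood at 0.0326 and 0.0346 at 1w and at 0.0854 and 0.237 at 4w. This ratio was higher in both 4w libraries. inv, from the same marker list as en, lay at 17.59 and 16.45 cRPKM in 1w-old and at 48.69 and 165.87 cRPKM in 4w-old TFCs-CpCs, and was not called (adjusted p = 0.128, edgeR). Whether en, or the make-up of the sorted cells, had a part in the level of hh was not tested.

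**Figure D4:**
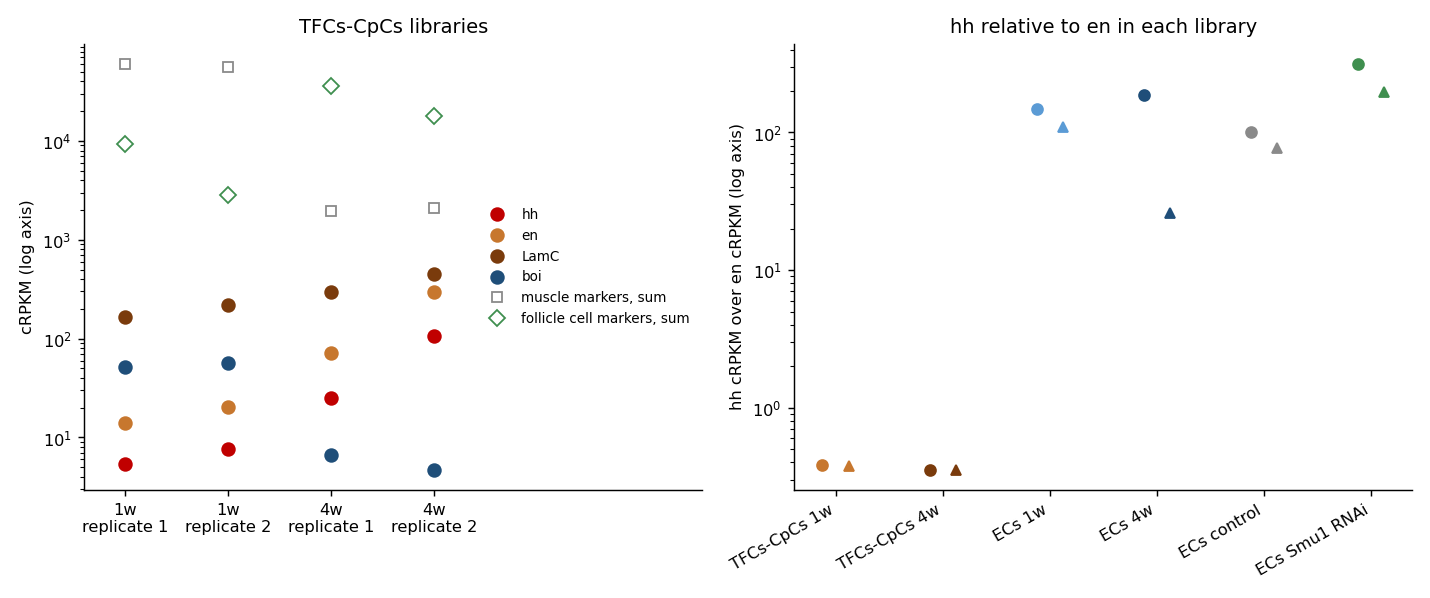
Left, levels in cRPKM (log axis) of hh, en, LamC and boi and the summed levels of muscle and follicle cell markers in the 4 TFCs-CpCs libraries. Right, the ratio of hh to en (log axis) in the 12 libraries, between 0.354 and 0.384 in all TFCs-CpCs libraries and at 26 or more in all EC libraries.

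In ECs no member was called with age. edgeR called 0 of the 10 genes, 0 of which had an unadjusted p under 0.05, and DESeq2 called 0, against 0.103% of 10675 genes called by edgeR. Over all genes tested, 570 had an unadjusted p under 0.05 in edgeR. The log2 fold changes at 4w over 1w lay between -0.24 for cos and 0.57 for fu, with a median of 0.09 against -0.03 over all genes tested. hh differed by -0.19 ± 0.29 and boi by 0.09 ± 0.42. cos and fu had the widest spread: cos lay at 7.08 and 1.89 cRPKM in younger against 5.59 and 1.31 cRPKM in older ECs, and fu at 8.03 and 4.01 cRPKM in younger against 3.6 and 13.1 cRPKM in older ECs. For these genes the spread within an age was larger than the difference between the ages. Muscle markers moved here as well, 6 of 15 being called lower at 4w.

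The difference between the ageing effects was tested as an interaction of age and cell group, in a fit that shares its libraries with the ageing comparisons above. edgeR called 2 of the 10 genes against 2.47% of 11452 genes tested, 0.961% with a positive and 1.51% with a negative value. For boi the ageing effect in TFCs-CpCs minus that in ECs was -3.58 ± 0.57 on the log2 scale, with an adjusted p of 0.018 in edgeR and between 3.4e-06 and 0.0523 in the alternatives, and the call stood without any single library. For hh it was 3.26 ± 0.75, with an adjusted p of 0.0658 in edgeR and between 0.00074 and 0.116 in the alternatives. The call on hh was lost in both limma fits, at 3.10 and 3.26, and without any of the 2 1w-old TFCs-CpCs libraries or the 4 EC libraries, where it stood between 3.09 and 3.46 on the log2 scale. The other 8 genes were not called, and those with the next largest values were ihog at 1.42 ± 1.08 and smo at -1.41 ± 0.92.

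The Smu1 RNAi comparison asked whether the loss of a splicing factor from ECs altered the transcript levels of the pathway. Counts per gene do not show changes in splicing. The target gene Smu1 fell from 26.39 and 23.63 cRPKM in control ECs to 4.17 and 5.51 cRPKM in Smu1 RNAi ECs, by 2.34 ± 0.19 on the log2 scale with an adjusted p of 6.43e-05 in edgeR. Of the 10 Hedgehog genes edgeR called 0, with 2 at an unadjusted p under 0.05, and DESeq2 called 0, against 1.11% of 9933 genes called by edgeR. Over all genes tested, 1088 had an unadjusted p under 0.05 in edgeR. The log2 fold changes lay between -0.13 for smo and 0.28 for ptc, with a median of 0.07 against 0.00 over all genes tested. Of the markers, edgeR called 1 of 5 for TFCs-CpCs and 1 of 15 for muscle higher, and none on the other lists. The first was LamC, at 10.23 and 9.57 cRPKM in control and 28.23 and 12.91 cRPKM in Smu1 RNAi ECs. It differed by 1.09 ± 0.27 with an adjusted p of 0.0823 in edgeR, and 3 of 7 alternatives called it. The part of these cells in the values was not tested.

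The pair with an unadjusted p under 0.05 were hh and ptc. hh lay at 88.47 and 86.6 cRPKM in control and at 100.17 and 101.87 cRPKM in Smu1 RNAi ECs, a log2 fold change of 0.24 ± 0.10 with an adjusted p of 0.387 in edgeR. ptc lay at 100.17 and 93.16 cRPKM in control and at 119.57 and 109.47 cRPKM in Smu1 RNAi ECs, a log2 fold change of 0.28 ± 0.11 with an adjusted p of 0.383 in edgeR. The groups did not overlap for either gene, but neither difference passed the test. These were the comparisons with the smallest standard errors of the 10 genes, between 0.10 and 0.18 on the log2 scale.

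The wider pathway was described by 34 other genes chosen by role, of which 33 had values and slmb was not analysed here. In TFCs-CpCs with age edgeR called 1 of 32 tested genes higher, which was en, and 1 lower, which was ttv, against 5.18% of all genes tested called in either direction. ttv, which encodes a heparan sulfate polymerase needed for the spread of the ligand, lay at 33.98 and 33.46 cRPKM in 1w-old cells and at 8.28 and 14.7 cRPKM in 4w-old cells, a log2 fold change of -1.83 ± 0.39 with an adjusted p of 0.0848 in edgeR. It was not called without either 1w library or in either limma fit. The median of the 32 genes was -0.12 against 0.04 over all genes tested.

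At 1w 14 of 33 pathway genes were higher and 4 lower in TFCs-CpCs than in ECs, against 14.0% of all genes tested higher and 17.2% lower, with a median of 0.80 against -0.19 over all genes. Among called genes whose higher group averaged 10 cRPKM or more, those with the largest changes were Notum, dpp and en. kn, which encodes a transcription factor, lay under that limit at 5.8 and 0.94 cRPKM in ECs and at 0 and 0.01 cRPKM in TFCs-CpCs, and was also called, with an adjusted p of 0.024 in edgeR. Its fitted fold change rests on 1 count in TFCs-CpCs and is not given. Notum, which encodes a secreted enzyme that inactivates Wnt ligands, lay at 0.38 and 0.17 cRPKM in TFCs-CpCs and at 26.76 and 17.03 cRPKM in ECs, a log2 fold change of -5.94 ± 0.63 with an adjusted p of 0.00195 in edgeR. dpp, which encodes the BMP ligand that maintains germline stem cells, lay at 59.36 and 43.69 cRPKM in TFCs-CpCs and at 2.95 and 0.74 cRPKM in ECs, a log2 fold change of 5.22 ± 0.67 with an adjusted p of 0.00375 in edgeR. en was higher by 4.76 ± 0.54 with an adjusted p of 0.00244 in edgeR.

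By role, and read against those same shares, the kinases and phosphatase that act on Smo and Ci held 3 called genes of 10 at 1w, all higher in TFCs-CpCs, and the ubiquitin machinery 4 of 8, also all higher. The genes for ligand maturation and matrix held 4 higher and 2 lower of 9, and the regulators and reported targets 3 higher and 2 lower of 6. At 4w 4 of 33 genes were higher and 3 lower, against 6.12% of all genes tested called, with a median of 0.49 against -0.03 over all genes. en was higher by 6.74 ± 1.16 with an adjusted p of 0.039, dpp by 4.31 ± 1.04 with an adjusted p of 0.0889, and Notum differed by -2.79 ± 0.52 with an adjusted p of 0.0502 (edgeR). dpp was not called without the second 4w TFCs-CpCs library or without either 4w EC library, en without the first 4w EC library, and Notum without either of them.

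**Figure D5:**
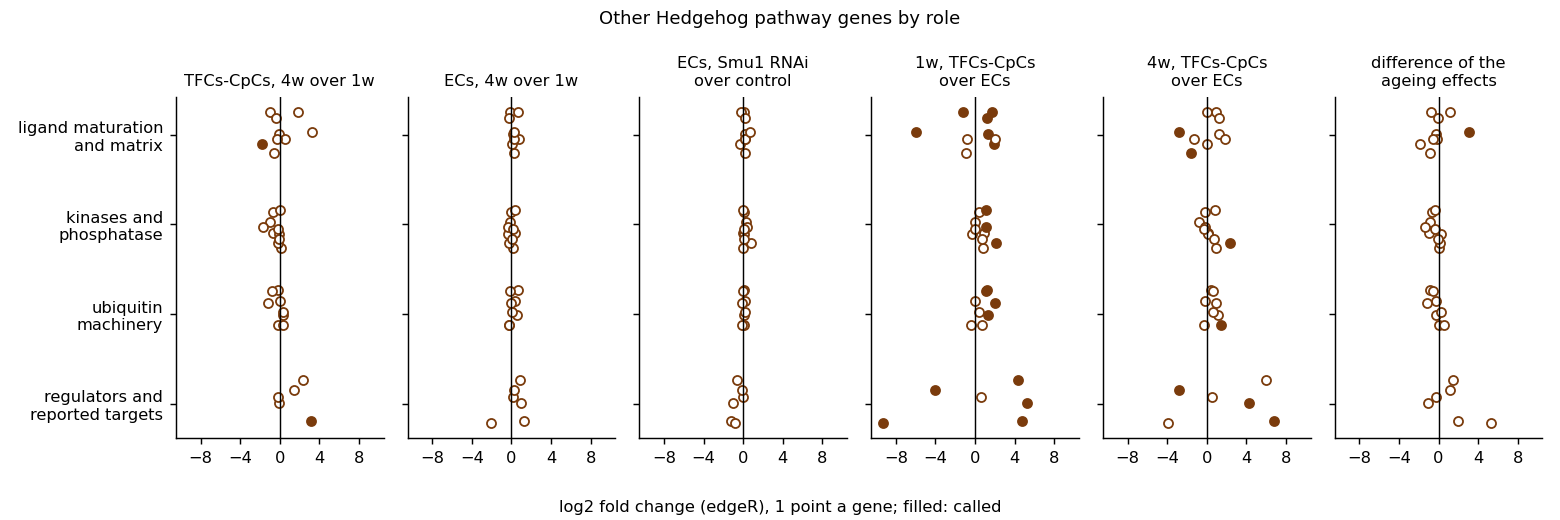
Log2 fold change (x axis, edgeR) of the other Hedgehog pathway genes in the 6 comparisons, grouped by role (y axis), 1 point a gene, filled where called. The called genes fall mostly in the comparisons of TFCs-CpCs with ECs, 18 of 33 at 1w and 7 of 33 at 4w. There are none in the ageing of ECs or in the Smu1 RNAi comparison. Over all genes tested edgeR called 31.2% at 1w, 6.12% at 4w, 0.103% in the ageing of ECs and 1.11% with Smu1 RNAi.

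In ECs edgeR called 0 of 33 pathway genes with age, 2 having an unadjusted p under 0.05. Of all 10675 genes tested there, 0.103% were called and 570 had an unadjusted p under 0.05. With Smu1 RNAi edgeR called 0 of 33, 5 having an unadjusted p under 0.05. Of all 9933 genes tested there, 1.11% were called and 1088 had an unadjusted p under 0.05. DESeq2 called 0 of the pathway genes in both. Over all genes tested edgeR called 2.47% of 11452 in the interaction. In the interaction 1 of 33 was called, Notum at 3.05 ± 0.78 with an adjusted p of 0.0957 in edgeR, and this call was lost under the replicate block, in both limma fits and without 6 of the 8 libraries in turn.

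The genes most like hh, boi and ptc over the 12 libraries were taken from 6913 genes that averaged 10 cRPKM or more in a group, by Pearson r of log2(CPM + 1). For hh they were comt (r = 0.99), FBgn0004364 (0.98), Samuel (0.97) and msi (0.97). All 4 shared a low level in 1w-old TFCs-CpCs, for example 11.4 cRPKM of msi there against 40.2 cRPKM in 4w-old TFCs-CpCs and between 46.9 and 60.5 cRPKM in ECs. For boi they were fz2 (0.96), viaf (0.95), AstA-R2 (0.95) and ITP (0.94). AstA-R2, a neuropeptide receptor gene, averaged 28.2 cRPKM in 1w-old TFCs-CpCs and between 0.14 and 1.84 cRPKM elsewhere. For ptc they were mt:ND3, Grl36b, Hf and Mec2, all with r of 0.98. Hf averaged 3.13 and 1.29 cRPKM in TFCs-CpCs and between 27.1 and 158 cRPKM in ECs. With 2 libraries per group such values describe the order of the groups, and the libraries also share their depth and their sort.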

How the data were processed

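RNA from sorted cells was amplified as cDNA by PCR and sequenced in pairs of 125 nt reads with strand-specific libraries. The authors aligned and counted reads with vast-tools (2.5.1) on dm6 and deposited, per library, read counts and cRPKM per gene, cRPKM being RPKM corrected by the authors for the mappable length of the transcript. PCR copies are not independent molecules, and counts are subject to amplification. Of 14489 listed genes, 763 had no value. Gene names were matched by FBgn identifier to the BDGP6 annotation for 13506 of the 13726 genes with a value. No library pair was identical.

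The deposited counts were tested with edgeR (4.0.16, R 4.3.3), with TMM normalization, at least 10 counts in at least 2 libraries, the quasi-likelihood test and Benjamini-Hochberg adjustment over all genes tested. A gene was called at an adjusted p under 0.1 and a log2 fold change of 1 or more in size. Fits held only the groups compared, and the interaction held the 4 ageing groups. Alternatives were DESeq2 (1.42.0), median-of-ratios factors, no filter, an adjusted p under 0.05, all 12 libraries in a single fit, a replicate block, limma (3.58.1) on log2(cRPKM + 1) and log2(cRPKM + 0.1), and each library left out. The scripts were tested on simulated data. Levels are cRPKM with no test.

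The members and lists were chosen with earlier results of these data known. Text names the 10 members; of 34 other pathway genes, up to 3 called genes per comparison with the largest change, if the higher group averaged 10 cRPKM or more; for hh, boi and ptc the 4 genes with the highest Pearson r over 12 libraries; and Smu1, en and LamC. bab1, bab2, inv, Wnt4, Eph, fax, CG17321, SPE, kn and shf were named after their values were seen. Muscle, follicle cell, germline, hemocyte, fat body and neuron markers were also listed.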

Additional observations from a re-analysis of the deposited data

Results flagged for a closer look

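The interaction test of edgeR called a different ageing effect in TFCs-CpCs and ECs for 3 of the member and pathway genes. These were 2 of the 10 members and 1 of the 33 pathway genes tested, against 2.47% of 11452 genes tested. The adjusted p was 0.018 for boi, 0.0658 for hh and 0.0957 for Notum in edgeR. The calls on hh and Notum were lost in both limma fits. For boi the difference was -3.58 on the log2 scale, with 54.2 cRPKM at 1w and 5.7 cRPKM at 4w in TFCs-CpCs against 19.8 and 20.2 cRPKM in ECs. For hh it was 3.26, with 6.5 and 65.6 cRPKM in TFCs-CpCs against 105 and 86.3 cRPKM in ECs. For Notum it was 3.05, with 0.275 and 3.19 cRPKM in TFCs-CpCs against 21.9 and 23.6 cRPKM in ECs. In the same TFCs-CpCs libraries 13 of 14 tested muscle markers were called lower at 4w, and their part in these differences was not tested.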

How the results depend on the processing

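Of the 10 genes, edgeR called 1 with age in TFCs-CpCs, and DESeq2, median-of-ratios factors, no filter, all 12 libraries in a single fit, the replicate block and both limma fits called 2, with 1 to 3 when a library was left out. The count at 4w between cell groups was 2, but 1 at an adjusted p under 0.05 and 0 to 3 with a library left out. The interaction count was 2, but 1 in both limma fits and at an adjusted p under 0.05, and 1 to 2 with a library left out. With a library left out, hh at 4w between cell groups ranged from -1.59 to 0.37 on the log2 scale and boi with age in ECs from -0.18 to 0.39. At 1w the count was 5, and 4 to 7 over all settings. In ECs, with age and with Smu1 RNAi, 0 of the 10 were called in any setting run.

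Counts over all genes moved more. With age in TFCs-CpCs 479 became 1423 with DESeq2, 1206 with no filter, 1585 with all 12 libraries, 287 at an adjusted p under 0.05 and 172 to 1246 with a library left out. In ECs 11 became 113 with DESeq2, 63 with no filter, 42 with all 12 libraries, 18 with the replicate block, 7 in both limma fits and 1 to 32 with a library left out. With Smu1 RNAi 110 became 1 with all 12 libraries, where Smu1 itself was not called, and 259 with the replicate block. Between cell groups, 3172 at 1w became 1987 at an adjusted p under 0.05 and 1944 to 3150 with a library left out, and 606 at 4w became 1905 with DESeq2, 1287 with no filter, 2373 with all 12 libraries, 960 and 1053 with limma, 224 at an adjusted p under 0.05 and 0 to 2285 with a library left out. The interaction count of 283 became 917 with DESeq2, 566 with no filter, 950 with all 12 libraries, 119 with limma on log2(cRPKM + 0.1), 130 at an adjusted p under 0.05 and 69 to 489 with a library left out. The causes were not tested.

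Library numbers are shared between groups. The study's methods describe females of both ages as taken from a common batch within a replicate, but the labels do not say that a number marks a batch, so which libraries share one is not known. Deviations of same-numbered libraries correlated at -0.04, -0.02, 0.22, 0.03 and -0.07 in the 5 comparisons. With the replicate block hh stood at 2.75 with age in TFCs-CpCs (adjusted p = 0.0227, edgeR), ihog and fu were called at 1w, and the Notum interaction was lost at 3.12. In limma on log2(cRPKM + 1), which changes the test, the values and the scaling together, the median of all genes moved to 0.22 with age in TFCs-CpCs and to -0.43 at 1w, and the share of called genes that were higher moved from 24.2% to 38.1%, from 44.8% to 32.8% and, at 4w, from 61.2% to 45.4%. Of 150 pairs of group means of the 10 genes, 134 kept their order in TMM-scaled counts. With 2 libraries per group, differences within the standard errors given cannot be resolved.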
